A study of Mus musculus with 9 samples.

Results

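RNA sequencing data of mouse primary renal tubular epithelial cells were examined for 10 genes of the tumor necrosis factor (TNF) system. The set held 2 ligands (Tnf and Tnfsf10), 5 receptors (Fas, Tnfrsf1a, Tnfrsf1b, Tnfrsf10b and Tnfrsf12a) and 3 TNF receptor associated factors (Traf1, Traf2 and Traf3). Members were matched by gene symbol, each to 1 row of the 31167 genes in the table. All 10 were among the 13985 genes tested. The members were chosen with earlier results of these data known, so counts of members called are descriptive. The cells came from the kidney of C57BL/6 mice and fell into 3 groups of 3 libraries. Sham cells were the negative control. The study describes them as untreated, whereas 1 treatment text in the labels, which includes transfection, covers all samples. H/R cells were kept in glucose-free medium at 1.0% oxygen for 6 h and then in complete medium for 18 h of reoxygenation, a culture model of ischemia and reperfusion. EGR1OV cells were transfected, with EndoFectin Max, with a plasmid in which the CMV promoter, active in most cell types, drives the transcription factor Egr1. None of the 9 libraries was labelled as given an empty plasmid, so the effects of Egr1, of plasmid DNA and of transfection cannot be told apart. The age of the mice and whether the 3 libraries of a group came from separate cultures are not given in the sources used here, so p-values measure the spread between these libraries, which may be technical.

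TNF superfamily ligands are made as trimeric membrane proteins, some of which are cut loose from the cell, and they signal by clustering their receptors. Receptors with a death domain, among them Fas, Tnfrsf1a (TNFR1) and Tnfrsf10b (the mouse receptor for the ligand TRAIL, which Tnfsf10 encodes), can recruit caspases. Tnfrsf1b (TNFR2) and Tnfrsf12a (the receptor of TWEAK, also called Fn14) lack a death domain and bind Traf proteins, the adaptors that lead to NF-kB and kinase signaling. In the kidney, TNF is known as a mediator of tubular injury and inflammation.

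The libraries were read to 16183613 to 18384012 reads, recovered from the steps of the FPKM values (fragments for each kilobase of exon, relative to the library total). Egr1 lay at 6.09 to 6.91 FPKM in Sham, 7.48 to 8.57 in H/R and 40.1 to 45.7 in EGR1OV, in the order the labels give. Of 14 tubule markers 10 had a mean of at least 1 FPKM, led by the epithelial keratins Krt8 (1010 FPKM in Sham) and Krt18 (685 FPKM), whereas Umod was at 0 in all 9 libraries and the proximal phosphate transporter Slc34a1 averaged at most 0.0209 FPKM in any group. Summed tubule markers ran from 2040 to 2080 FPKM in Sham, 1880 to 1960 in H/R and 1350 to 1460 in EGR1OV. Macrophage markers were present too. All 14 were in the table, and their sum ran from 163 to 169 FPKM in Sham, 139 to 149 in H/R and 47.1 to 55.9 in EGR1OV. Of the 12 tested, 9 were called lower and 1 (Cd14) higher in EGR1OV against Sham. In bulk RNA, fewer cells of a type and less RNA per cell cannot be told apart. Summed markers of T and NK lymphocytes were at most 3.92 FPKM in any library, of B lymphocytes 0.909, of endothelium 12.9 and of fibroblasts and pericytes 43.0. The RNA Gm23935 varied from 1490 to 21700 FPKM between libraries of the same group and across groups.

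A gene was called when the limma adjusted p was under 0.05 and the change on the log2(FPKM + 1) scale reached 1.3-fold (0.379) in comparisons with EGR1OV or 1.2-fold for H/R against Sham. Every change below is on that scale, which understates the change of genes at low FPKM, and every adjusted p is from limma over all 13985 genes. In EGR1OV against Sham 4 of 10 members were called, all of them higher, where 16.4% of all genes were called, 9.87% higher and 6.51% lower. In H/R against Sham 1 of 10 was called, lower, where 4.25% of all genes were called, 1.6% higher and 2.65% lower. In EGR1OV against H/R 4 of 10 were called, all of them higher, where 18.9% of all genes were called and 11.9% were higher. Both counts with EGR1OV include Tnf and Tnfsf10, which passed the filter of 0.5 FPKM on average only through EGR1OV. That they were called higher there is therefore partly fixed by the filter. The comparisons share libraries and are not independent of each other. The split of all calls moved with scaling. Against Sham it was 1381 higher and 910 lower in EGR1OV as deposited and 1050 higher and 1250 lower after quantile normalization. In H/R it was 224 higher and 370 lower as deposited, 319 and 229 after median-ratio scaling, and 311 and 243 after quantile normalization. Against H/R, EGR1OV had 1670 genes higher and 971 lower as deposited, 1307 and 1257 after median-ratio scaling, and 1113 and 1504 after quantile normalization. With no fold threshold, 9 of 10 members had an adjusted p under 0.05 in EGR1OV against Sham (45.9% of all genes), 1 of 10 in H/R against Sham (11.7%) and 6 of 10 in EGR1OV against H/R (51.0%). These counts are as deposited. In EGR1OV against Sham, Traf1 and Traf3 had an adjusted p above 0.05 after median-ratio scaling (0.0543 and 0.0705) and quantile normalization (0.0549 and 0.689).

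**Figure D1:**
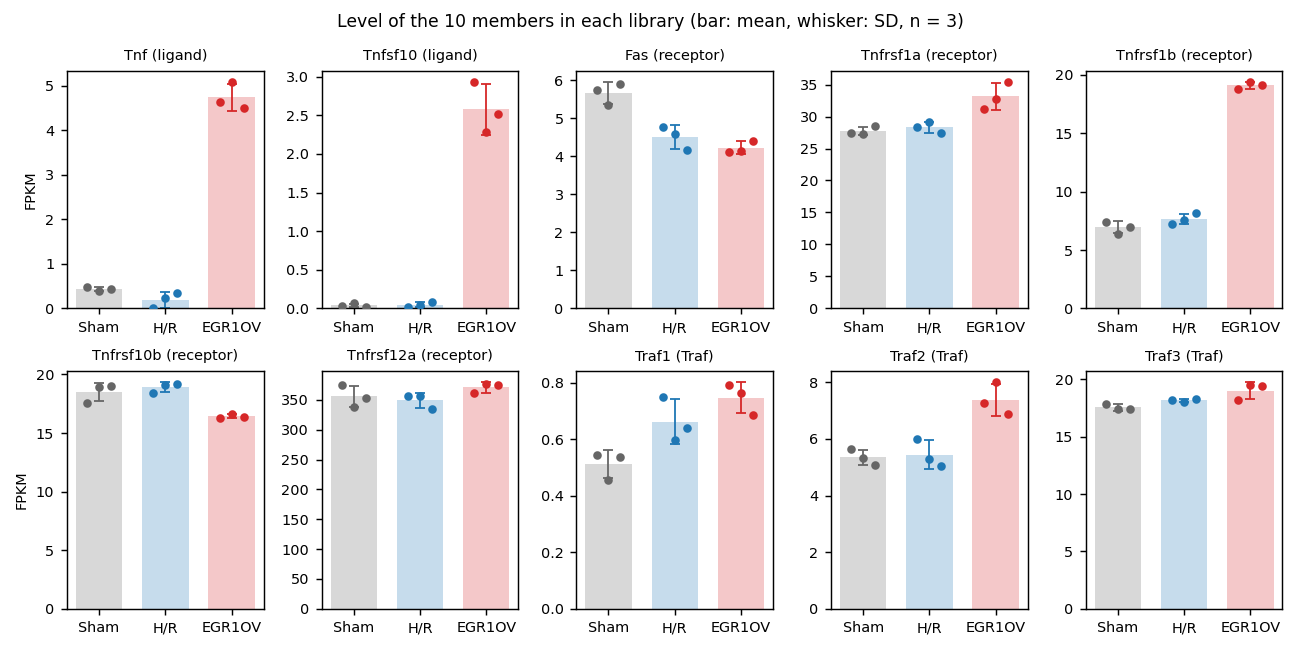
FPKM of each member in the 9 libraries, 1 panel a gene, each with its own axis from 0. Points are libraries, bars the mean of 3 libraries and whiskers the SD. In EGR1OV the points of Tnf, Tnfsf10 and Tnfrsf1b sit far above both other groups, those of Traf2 less far above, and Tnfrsf12a stays between 335 and 377 FPKM throughout.

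The promoters of the members that the results turn on are shown first, to set the motifs they hold beside the changes. RefSeq (GRCm38.p6) gave a promoter for 9 of the 10 members, and Tnfrsf10b had none. Each was searched from 250 bases before to 50 bases after the start for 5 motifs on both strands. These were the interferon-stimulated response element core GAAANNGAA (in 8.56% of 32851 promoters), the STAT element GAS TTCNNNGAA (8.3%), the NF-kB motif GGNNTTTCC (5.82%), the EGR1 motif GCGNGGGCG (5.55%) and the AP-1 element TRE TGANTCA (7.81%). The GAS and TRE motifs read the same on both strands, so a site was counted once. Tnf and Tnfsf10, the ligands that changed most, Tnfrsf1b, the receptor that rose, and Tnfrsf12a and Traf3, which held EGR1 motifs and were not called, are printed 5′ to 3′ with matches in capitals. Bases that lie inside the GENCODE gene were left off the end of Tnfsf10 and Tnfrsf12a.
Tnf, chr17:35202008-35202257, minus strand: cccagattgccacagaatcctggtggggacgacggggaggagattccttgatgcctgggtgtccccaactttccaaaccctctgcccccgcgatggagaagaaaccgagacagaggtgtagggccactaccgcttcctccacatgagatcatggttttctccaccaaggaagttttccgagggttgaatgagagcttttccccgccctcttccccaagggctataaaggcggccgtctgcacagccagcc
Tnfsf10, chr3:27316827-27317027, plus strand: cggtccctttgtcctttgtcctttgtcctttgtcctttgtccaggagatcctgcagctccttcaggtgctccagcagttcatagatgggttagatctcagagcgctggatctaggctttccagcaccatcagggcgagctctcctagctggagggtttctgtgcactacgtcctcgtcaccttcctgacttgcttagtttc
Tnfrsf1b, chr4:145246871-145247120, minus strand: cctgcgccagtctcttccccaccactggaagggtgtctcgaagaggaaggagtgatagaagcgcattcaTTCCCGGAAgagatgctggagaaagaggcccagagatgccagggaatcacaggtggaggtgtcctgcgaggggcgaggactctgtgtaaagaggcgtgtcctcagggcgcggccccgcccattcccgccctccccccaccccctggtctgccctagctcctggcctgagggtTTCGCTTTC
Tnfrsf12a, chr17:23677469-23677699, minus strand: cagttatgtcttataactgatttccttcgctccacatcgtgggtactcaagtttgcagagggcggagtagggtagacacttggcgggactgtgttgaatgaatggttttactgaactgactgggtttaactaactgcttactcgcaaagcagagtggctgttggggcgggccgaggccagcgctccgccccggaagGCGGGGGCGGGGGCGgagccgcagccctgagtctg
Traf3, chr12:111166120-111166369, plus strand: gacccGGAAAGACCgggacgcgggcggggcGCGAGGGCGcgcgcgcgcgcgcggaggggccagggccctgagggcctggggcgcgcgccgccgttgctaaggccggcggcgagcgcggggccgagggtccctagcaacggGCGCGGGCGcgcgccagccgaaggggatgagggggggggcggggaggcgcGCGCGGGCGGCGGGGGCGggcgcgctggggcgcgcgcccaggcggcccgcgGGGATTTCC

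Tnf, Tnfsf10 and Traf1 held no exact match of the 5 motifs in this window. Tnfrsf1b held a GAS match from -181 to -173 and an interferon element core on the opposite strand from -9 to -1, counted from the start. Tnfrsf12a held 2 EGR1 matches that overlap each other, from -54 to -46 and from -48 to -40. Traf3 held 4 EGR1 matches between -220 and -43 and 2 NF-kB matches, from -245 to -237 and from -9 to -1. Of the promoters not printed, Fas held a GAS match from -93 to -85 and a TRE match from -211 to -205, Tnfrsf1a a GAS match from -244 to -236, and Traf2 an NF-kB match from 33 to 41. A match is a run of letters and does not show that a factor binds there. Nor does the lack of an exact match show that a site is absent. Variant letters and bases outside the window were not searched.

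Both ligands rose in EGR1OV and were near the detection limit in the other groups. Tnf (ENSMUSG00000024401, chr17:35199381-35202007, minus strand) encodes TNF itself. It was at 0.482, 0.385 and 0.444 FPKM in Sham, which rest on 13, 11 and 12 reads. In H/R it was at 0, 0.232 and 0.344 FPKM, or 0, 7 and 10 reads, where 3 reads in the library at 0 would be 0.113 FPKM. In EGR1OV it was at 4.63, 5.08 and 4.50 FPKM, or 126, 136 and 124 reads. The groups did not overlap, with H/R lowest and EGR1OV highest. The change in EGR1OV against Sham was +2.0 (SE 0.11, 95% interval 1.76 to 2.24, adjusted p 4.57e-07), and against H/R it was +2.28 (SE 0.11, adjusted p 1.69e-07). In reads per depth, EGR1OV was 10.9 times Sham (95% interval for counting error 7.7 to 15.7) and 23.9 times H/R (14.7 to 41.4). H/R against Sham was not called (-0.28, 95% interval -0.52 to -0.04, adjusted p 0.124), with 17 reads in all against 36, a ratio of 0.455 (counting interval 0.24 to 0.831). Without the H/R library at 0 the change was -0.158, while limma voom on the recovered reads called it lower (log2 change -1.863, adjusted p 0.0476). A fall of Tnf after H/R was therefore not settled at this depth.

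Tnfsf10 (ENSMUSG00000039304, chr3:27317028-27342427, plus strand) encodes TRAIL, which can kill cells through death receptors. It was at 0.0346, 0.0654 and 0.0230 FPKM in Sham (3, 6 and 2 reads) and at 0.0235, 0.0413 and 0.0857 FPKM in H/R (2, 4 and 8 reads). In EGR1OV it was at 2.93, 2.28 and 2.52 FPKM (256, 196 and 223 reads). Sham and H/R overlapped, and each EGR1OV library was far above both. The change was +1.78 against Sham (SE 0.085, adjusted p 2.17e-07) and +1.76 against H/R (SE 0.085, adjusted p 2.17e-07). In reads per depth EGR1OV was 62.1 times Sham (counting interval 34.5 to 125) and 50.7 times H/R (30.0 to 93.2), and H/R was 1.23 times Sham (0.517 to 2.98). Relative to all tested genes, Tnfsf10 moved from percentile 0.1 in Sham to 29.5 in EGR1OV, and Tnf from 1.4 to 43.4. Tnf and Tnfsf10 passed the filter of 0.5 FPKM on average only through EGR1OV, so that they differ among groups is partly fixed by the filter. Summed macrophage markers were lower in the same EGR1OV libraries in which Tnf was higher (47.1 to 55.9 against 163 to 169 FPKM in Sham), and their part in the ligand values was not tested.

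Of the 5 receptors, Tnfrsf1b was called higher in EGR1OV, and Tnfrsf1a was higher there by less than the fold threshold. Tnfrsf1b (ENSMUSG00000028599, chr4:145213463-145246870, minus strand) read 7.44, 6.41 and 7.0 FPKM in the Sham libraries, 7.25, 7.58 and 8.14 in the H/R libraries, and 18.8, 19.4 and 19.1 in the EGR1OV libraries. Sham and H/R overlapped, and the EGR1OV libraries lay close together and above both. The mean was 2.74 times that of Sham, 19.1 ± 0.305 against 6.95 ± 0.514 FPKM (SD, n = 3). The change was +1.34 against Sham (SE 0.054, adjusted p 6.05e-08) and +1.21 against H/R (SE 0.054, adjusted p 1.16e-07). H/R was not called against Sham (+0.12, 95% interval 0 to 0.25, adjusted p 0.173).

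Tnfrsf1a (ENSMUSG00000030341, chr6:125349362-125362484, plus strand), the other receptor for TNF and the one with a death domain, moved much less. In FPKM, Sham read 27.5, 27.3 and 28.5, H/R 28.4, 29.1 and 27.4 and EGR1OV 31.2, 32.8 and 35.4. The EGR1OV libraries lay above the others, by +0.25 against Sham (adjusted p 0.00179) and +0.22 against H/R (adjusted p 0.00294), both under the fold threshold. H/R differed from Sham by +0.03 (95% interval -0.08 to 0.13, adjusted p 0.761). The ratio of Tnfrsf1a to Tnfrsf1b in FPKM, which is per length, averaged 4.01 ± 0.29 for Sham, 3.71 ± 0.298 for H/R and 1.74 ± 0.102 for EGR1OV (SD, n = 3 each), and its EGR1OV values (1.66 to 1.85) did not overlap the others (3.37 to 4.26).

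Fas (ENSMUSG00000024778, chr19:34290659-34327770, plus strand), the receptor of Fas ligand, was the only member called in H/R against Sham. Levels were 5.74, 5.35 and 5.92 FPKM for Sham, 4.77, 4.59 and 4.16 for H/R and 4.11, 4.14 and 4.42 for EGR1OV. Every treated library was below every Sham library, and H/R and EGR1OV overlapped. Fas fell by 0.28 in H/R (SE 0.055, 95% interval -0.40 to -0.15, adjusted p 0.0149), from 5.67 ± 0.291 to 4.51 ± 0.311 FPKM (SD, n = 3). This call lies near the 1.2-fold threshold and was lost under both scalings (-0.243 median-ratio, -0.241 quantile) and without Sham replicate 1 (adjusted p 0.0511), Sham replicate 3 (adjusted p 0.0563) or H/R replicate 3 (-0.231). In EGR1OV the difference from Sham was -0.35 (SE 0.055, adjusted p 0.000696), under the 1.3-fold threshold, and EGR1OV differed from H/R by -0.07 (95% interval -0.20 to 0.05, adjusted p 0.295). EGR1OV against Sham was called lower with a pseudocount of 0.1 (-0.415), after quantile normalization (-0.44), without Sham replicate 2 (-0.387) and with limma voom (-0.421), for which its recovered reads, not whole, were rounded. Its ligand Fasl was not above 0.0302 FPKM on average in any group.

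Tnfrsf10b (ENSMUSG00000022074, chr14:69767472-69784411, plus strand), the receptor to which the Tnfsf10 product binds, was not higher where its ligand was. The Sham libraries read 17.6, 18.9 and 19.0 FPKM, the H/R libraries 18.4, 19.1 and 19.2 and the EGR1OV libraries 16.3, 16.6 and 16.4. The EGR1OV libraries were below all others, by -0.16 against Sham (95% interval -0.24 to -0.08, adjusted p 0.00479) and by -0.19 against H/R (-0.27 to -0.11, adjusted p 0.00144), and neither reached the fold threshold. H/R differed from Sham by +0.03 (95% interval -0.05 to 0.11, adjusted p 0.588).

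Tnfrsf12a (ENSMUSG00000023905, chr17:23675447-23677449, minus strand) was by far the most abundant member. In FPKM, Sham read 375, 339 and 354, H/R 356, 357 and 335 and EGR1OV 361, 377 and 375, and Sham overlapped both other groups while every EGR1OV library was above every H/R library. Sham stood at percentile 99.4 of the tested genes, and the gene held 85.8%, 85.5% and 83.6% of the summed FPKM of the 5 receptors in Sham, H/R and EGR1OV. The change was +0.06 in EGR1OV (95% interval -0.03 to 0.15, adjusted p 0.253) and -0.03 in H/R (-0.12 to 0.06, adjusted p 0.719), so a change of 1.2-fold lies outside both intervals. Its ligand Tnfsf12 averaged 0.755, 1.11 and 0.875 FPKM in the 3 groups, in the same order.

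**Figure D2:**
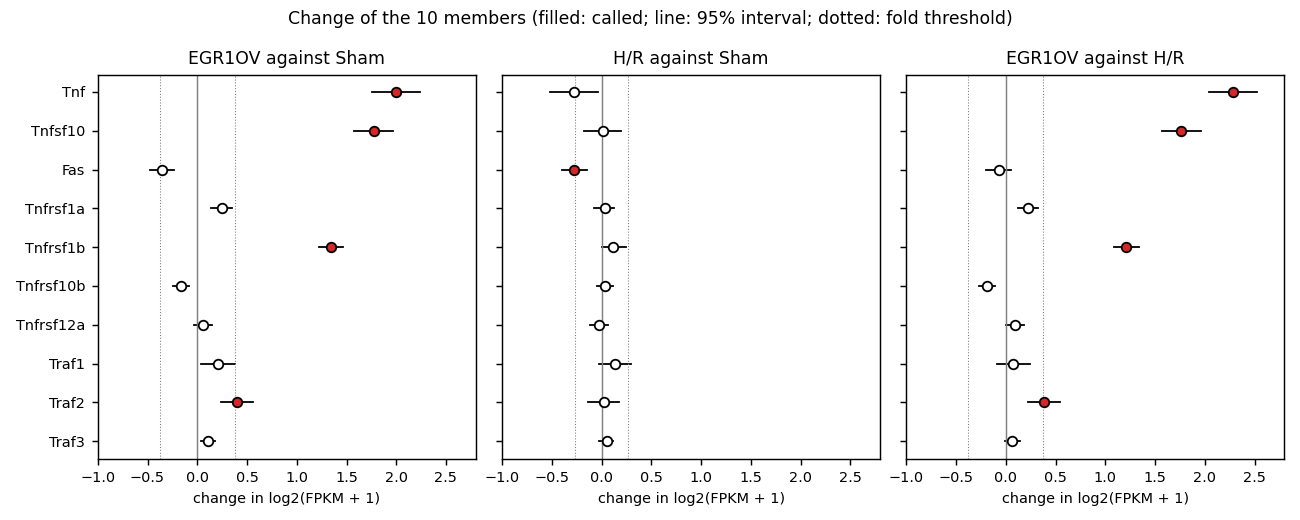
Change of each member on the log2(FPKM + 1) scale in the 3 comparisons, with 95% intervals from limma (9 libraries) as lines, called changes filled, and the fold threshold as dotted lines. Tnf, Tnfsf10 and Tnfrsf1b lie beyond +1 in both EGR1OV panels, Traf2 just past the threshold in both, and in H/R against Sham only Fas is filled.

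Of the Trafs, Traf2 was called higher in EGR1OV by a narrow margin. Traf2 (ENSMUSG00000026942, chr2:25517982-25546940, minus strand) is the adaptor that joins TNF receptors to ubiquitin ligases and to NF-kB and JNK signaling. Levels were 5.64, 5.31 and 5.09 FPKM for Sham, 6.01, 5.29 and 5.04 for H/R and 7.27, 8.0 and 6.88 for EGR1OV. EGR1OV lay above the other groups, which overlapped. The change was +0.40 against Sham (SE 0.069, adjusted p 0.0012) and +0.38 against H/R (SE 0.069, adjusted p 0.00141), with a mean of 7.39 ± 0.567 FPKM against 5.35 ± 0.274 in Sham (SD, n = 3). The calls against Sham and H/R fell under the 1.3-fold threshold after median-ratio scaling (0.374 and 0.319) and quantile normalization (0.309 and 0.254) and without EGR1OV replicate 2 (0.348 and 0.328), with adjusted p under 0.05 throughout. The call against Sham was also lost without Sham replicate 3 (0.372), and that against H/R without H/R replicate 2 (0.364) or H/R replicate 3 (0.335).

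Traf1 (ENSMUSG00000026875, chr2:34941750-34961772, minus strand), a Traf with no RING domain that is induced by NF-kB in many cells, was low in all groups. The Sham libraries read 0.545, 0.455 and 0.536 FPKM, the H/R libraries 0.750, 0.598 and 0.639 and the EGR1OV libraries 0.792, 0.763 and 0.687, from 70 to 116 reads a library. All treated libraries were above the Sham libraries, and H/R and EGR1OV overlapped. The differences from Sham were +0.21 in EGR1OV (95% interval 0.04 to 0.38, adjusted p 0.0431) and +0.14 in H/R (-0.03 to 0.30, adjusted p 0.264), neither called. With a pseudocount of 0.1 EGR1OV was called higher (0.471, adjusted p 0.049), and so it was with limma voom (0.548, adjusted p 0.00267).

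Traf3 (ENSMUSG00000021277, chr12:111166370-111267153, plus strand), which restrains the non-canonical NF-kB pathway and takes part in interferon induction, differed little. In FPKM, Sham read 17.9, 17.4 and 17.4, H/R 18.2, 18.0 and 18.3 and EGR1OV 18.2, 19.5 and 19.4. Both treated groups lay above Sham, by +0.11 in EGR1OV (95% interval 0.04 to 0.18, adjusted p 0.0191) and +0.05 in H/R (-0.03 to 0.12, adjusted p 0.388), and neither was called. The EGR1OV difference from Sham was 0.082 after median-ratio scaling (adjusted p 0.0705) and 0.018 after quantile normalization (adjusted p 0.689).

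By order of level in Sham, Tnfrsf12a was followed by Tnfrsf1a, Tnfrsf10b, Traf3, Tnfrsf1b, Fas, Traf2, Traf1, Tnf and Tnfsf10. Neighbours whose libraries overlapped were Tnfrsf10b and Traf3, Fas and Traf2, and Traf1 and Tnf. In EGR1OV, Tnfrsf1b (18.8 to 19.4 FPKM) overlapped Traf3 (18.2 to 19.5) and lay above Tnfrsf10b (16.3 to 16.6), and Tnf (4.50 to 5.08) lay above Fas (4.11 to 4.42) and Traf1. The groups did not overlap for 9 of 10 members in EGR1OV against Sham, 7 above and 2 below, where 55.7% of all genes did not. They did not overlap for 4 of 10 in H/R against Sham, 2 above and 2 below, where 33.6% did not, and for 7 of 10 in EGR1OV against H/R, 6 above and 1 below, where 58.6% did not. The counts with EGR1OV again include Tnf and Tnfsf10, which passed the filter only through EGR1OV. An exact two-sided permutation test cannot go below p = 0.1 with 3 against 3 libraries, and over the 30 tests of members the smallest adjusted value was 0.15.

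The rest of the pathway was read from 6 lists of 106 genes, of which 80 were tested. The lists, too, were chosen with earlier results of these data known, so their counts are descriptive. Over all genes, 9.87% were called higher and 6.51% lower in EGR1OV, and 1.6% higher and 2.65% lower in H/R. Of 16 other TNF superfamily ligands 14 were in the table and 3 were tested, and Tnfsf9, the ligand of 4-1BB, rose in EGR1OV (+0.48, adjusted p 0.0283). The median change of the 3 was 0.17 in EGR1OV and 0.14 in H/R, against 0.017 and -0.03 over all genes. Of 23 other receptors 12 were tested, with 4 called higher in EGR1OV, 3 higher in H/R and none lower, and medians of 0.22 and 0.11. Cd40, a costimulatory receptor, averaged 10.1 ± 0.619 FPKM for Sham, 12.9 ± 0.465 for H/R and 24.3 ± 0.793 for EGR1OV (SD, n = 3 each). It rose by +1.19 in EGR1OV (adjusted p 4.97e-08) and +0.33 in H/R (adjusted p 0.00358). The decoy receptor Tnfrsf11b (osteoprotegerin), which can bind TRAIL, rose from 12.2 to 18.3 FPKM in H/R (+0.55, adjusted p 0.000493) and to 23.7 in EGR1OV (+0.90, adjusted p 6.6e-07). Tnfrsf23, a mouse decoy TRAIL receptor, rose by +0.62 in EGR1OV (adjusted p 3.35e-06).

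Of 11 other Trafs and Traf partners 9 were tested, with 2 called higher in EGR1OV and none called in H/R, and medians of 0.20 and -0.07. After quantile normalization the 2 became 1. Over all genes 9.87% were called higher in EGR1OV and 1.6% in H/R. Trafd1, a feedback regulator of innate immune signaling, rose from 7.82 ± 0.32 to 27.8 ± 0.676 FPKM (SD, n = 3) in EGR1OV (+1.71, adjusted p 2.42e-09), and Traf3ip2 rose by +0.44 (adjusted p 0.00285). Among 28 receptor-proximal adaptors, kinases and ubiquitin enzymes, all tested, 10 were higher in EGR1OV and none lower, with a median of 0.24, and 1 was higher in H/R, with a median of 0.01. After quantile normalization the 10 became 7. Daxx, an adaptor and histone chaperone, rose by +1.91 in EGR1OV (adjusted p 2.65e-09). Rnf31, the catalytic subunit of the linear ubiquitin ligase, rose by +1.18 (adjusted p 1.25e-06), and Birc3, which binds Traf2, by +0.95 (adjusted p 3.79e-07). In H/R the kinase Map3k14, which drives the non-canonical pathway, rose by +0.30 (adjusted p 0.00402).

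Of 18 genes that TNF is known to induce through NF-kB, all tested, 16 were called higher in EGR1OV (9.87% of all genes) and 7 in H/R (1.6% of all genes), and none was called lower in either. Ccl20, Cxcl2 and Il6 passed the filter of 0.5 FPKM only through EGR1OV, and of the other 15 genes 13 were called higher there. The median change was 1.21 in EGR1OV and 0.15 in H/R. After quantile normalization 15 were called higher in EGR1OV and 8 in H/R. Against H/R, 14 were higher in EGR1OV. The chemokine Ccl2 averaged 4.09 ± 0.517 FPKM for Sham, 6.72 ± 0.841 for H/R and 132 ± 10.2 for EGR1OV (SD, n = 3 each). It rose by +4.71 in EGR1OV (adjusted p 4.08e-10) and by +0.60 in H/R (adjusted p 0.00595). The neutrophil chemokines Cxcl1 and Cxcl2 rose by +4.27 and +2.83 in EGR1OV (adjusted p 3.19e-09 and 6.2e-09). Vcam1, an adhesion molecule, rose by +0.54 in H/R (adjusted p 0.000209). Of 10 genes of ligand shedding and Tnf mRNA decay, 4 were higher and 1 lower in EGR1OV and none was called in H/R, with medians of 0.22 and 0.05. After quantile normalization the 4 became 3. Zfp36, which promotes decay of Tnf mRNA, rose by +0.68 in EGR1OV (adjusted p 6.2e-06), and Rhbdf1 and Rhbdf2, partners of the shedding protease, by +0.50 each (adjusted p 3.36e-05 and 0.000303). Timp3, an inhibitor of that protease, fell by 0.55 (adjusted p 3.54e-06).

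**Figure D3:**
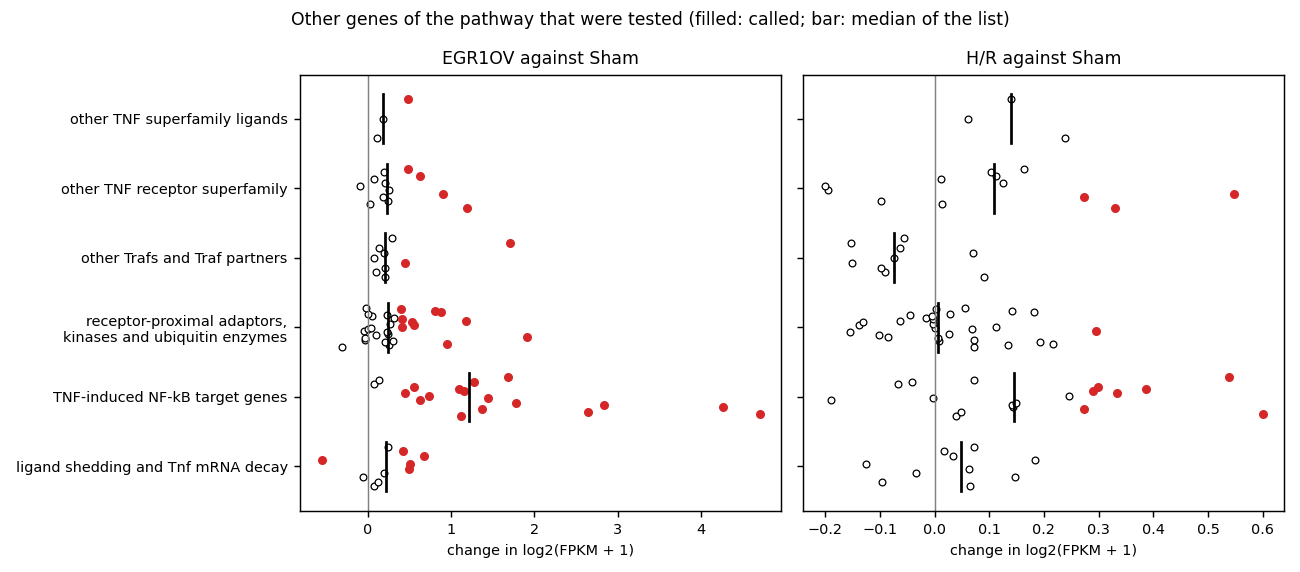
Change on the log2(FPKM + 1) scale of each tested gene of 6 pathway lists, for EGR1OV against Sham and H/R against Sham. The panels have different horizontal scales, called genes are filled and the vertical bar is the median of the list. The NF-kB target genes spread furthest to the right in EGR1OV, with 16 of 18 called higher and a median of 1.21, and 3 of the 16 passed the filter only through EGR1OV.

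The genes nearest to each member in the shape of their profile were found among 12285 genes of at least 1 FPKM, by the root mean square difference of log2(FPKM + 1) over the 9 libraries, each profile centred on its Sham mean. For Tnf these were Gm14137 (0.108) and Asap3 (0.145), for Tnfsf10 Olfr56 (0.076) and Nampt (0.081), and for Tnfrsf1b Ikbke (0.081) and Asic3 (0.085). A small distance on this scale is not an equal fold change at low FPKM. Nampt averaged 8.04 FPKM in Sham and 29.6 in EGR1OV, where Tnfsf10 averaged 0.041 and 2.57. Olfr56 and Asic3 reached 1 FPKM on average only through EGR1OV. For the other members the nearest genes lay between 0.017 (Zfp644, near Tnfrsf10b) and 0.049 (Rasa4, near Traf2).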

How the data were processed

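The authors deposited a table of FPKM values with a column for each of the 9 libraries and no pooling. The submitters' processing notes name Bowtie2 2.2.3, HISAT2 2.1.0, TopHat2 and the build mm9, with no role. The positions in the table nevertheless equal GENCODE M21 (GRCm38) for 94.6% of genes, so they are given as GRCm38. The counter was not given in the sources used here. Symbols that had been turned into dates (26 rows) were restored from the identifier.

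The 13985 genes averaging 0.5 FPKM or more were tested as log2(FPKM + 1) in 1 limma fit of 9 libraries (limma 3.58.1, R 4.3.3, trend, two-sided, Benjamini-Hochberg). The thresholds for calls against Sham follow the study, and the 1.3-fold used between EGR1OV and H/R was set here. Reads were recovered from FPKM steps and the GENCODE M21 exon length, and 94.0% of 162960 values were whole within 0.02 reads. For 8 members the reads came out whole, but not for Fas and Tnfrsf12a, whose gene model in the table differs from M21. No member shares an exon with another gene of M21. Intervals on reads cover counting error only. The fit was checked on simulated data. Other steps used Python 3.11.15 (scipy 1.17.1, pandas 2.3.3, numpy 2.4.6) and figures matplotlib 3.10.9.

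Members and lists were chosen with earlier results of these data known. By rule, every member is named. From each list up to 3 called genes with the largest rise and up to 3 with the largest fall in EGR1OV, and up to 2 called in H/R, are named where the higher group reached 1 FPKM, along with the 2 genes nearest to each member. Ligands, markers and library facts given outside this rule were chosen after their values were seen. Alternatives were a pseudocount of 0.1, no filter and a filter of 5 FPKM, median-ratio and quantile scaling, the replicate block, no trend, only the groups compared, no fold threshold, each library left out and limma voom on recovered reads. A covariate for Gm23935 was added after seeing the data.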

Additional observations from a re-analysis of the deposited data

How the results depend on the processing

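Tnf, Tnfsf10 and Tnfrsf1b were called higher in both comparisons with EGR1OV under each alternative that tested them. Of 558 values of single members under alternatives, 535 kept their side of the threshold, 16 lost a call and 7 gained one, and no called value changed sign. The values lost were of Traf2 and Fas, and those gained of Fas, Traf1 and Tnf. The cause was not tested.

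In EGR1OV against Sham 2 members were called at a mean of at least 5 FPKM, where Tnf, Tnfsf10, Fas and Traf1 were not tested, and 9 with no fold threshold. Over all genes the counts were 1315 of 7588 tested at 5 FPKM and 6417 of 13985 with no fold threshold, against 2291 of 13985. The filter of 5 FPKM left 6 members and 7588 genes in each comparison. Its counts therefore cannot be set directly against those of the main fit. In H/R against Sham 0 members were called at 5 FPKM, 0 after median-ratio scaling, 0 after quantile normalization and 2 (Fas and Tnf) with limma voom, and between 0 and 1 when a library was left out. Over all genes 1635 of 13985 were called with no fold threshold, against 594 of 13985. The counts were 372 of 7588 at 5 FPKM and 1001 of 13972 with limma voom. They were 548 after median-ratio scaling, 554 after quantile normalization and 449 to 579 with a library left out. The only member call lost was that of Fas, which was not tested at 5 FPKM. In EGR1OV against H/R 2 of 6 members were called at 5 FPKM. Over all genes 1520 of 7588 were called at 5 FPKM and 7135 of 13985 with no fold threshold, against 2641 of 13985. With Gm23935 as a covariate Traf2 was under the fold threshold (0.362 against Sham and 0.291 against H/R).

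The groups share replicate numbers, but libraries with the same number did not deviate together (correlations of -0.195 to 0.26 over 9 pairs), and 3 of 9 libraries correlated best with their own number. With the replicate block 4, 1 and 4 members were called in the 3 comparisons, and over all genes 2309, 516 and 2654. Depth limits Tnf in Sham and H/R and Tnfsf10 there, at 0 to 13 reads a library.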

Other observations

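The B lymphocyte markers summed to 0.0613 to 0.0941 FPKM in Sham and to 0.829 to 0.909 in EGR1OV, most of it Pax5 (0.792 ± 0.0322 FPKM in EGR1OV, SD, n = 3, and at most 0.00445 on average in the other groups). Pax5 was chosen after its values were seen and was under the filter, so it was not tested.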
